A study of Mus musculus with 9 samples.

Results

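Sorted neutrophils from pancreatic tumors, blood and bone marrow were compared for their RNA of 7 CC chemokine ligands, Ccl2, Ccl3, Ccl4, Ccl5, Ccl6, Ccl7 and Ccl9. The ligands were chosen by gene name from the 46517 genes with values, and 5 of them were high enough to enter the test across 7794 genes. All groups came from C57BL/6 mice at day 27 after orthotopic transplantation (OT) of a pancreatic ductal adenocarcinoma (PDAC), in which luciferase-expressing tumor cells, a line from genetically engineered mice carrying Trp53R172H/+ and PDX-cre, were placed in the pancreas. The groups are Ly6G.hi bone marrow neutrophils, blood Ly6G+ neutrophils and tumor-infiltrating Ly6G+ neutrophils. Each had 3 libraries, and each library was a pool of OT mice from a separate experiment, so values show no spread between single animals, and blood and marrow are those of tumor-bearing mice. The study's methods give 1 gate for every compartment, live CD45+ cells positive for Ly6G and Ly6C and negative for the lymphoid markers CD3, B220 and NK1.1.

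CC chemokines are small secreted proteins with an adjacent pair of cysteines near the amino terminus, from which the family takes its name. They bind G protein-coupled receptors on leukocytes and draw these cells into tissue, and neutrophils are both a source of CC chemokines and a cell that answers to some of them. Ccl2 and Ccl7 draw monocytes through the receptor Ccr2. Ccl3, Ccl4 and Ccl5 are inflammatory ligands that draw T cells, NK cells and macrophages, and Ccl3 and Ccl5 bind Ccr1. Ccl6 and Ccl9 are rodent ligands of Ccr1 made by myeloid cells.

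The 7 genes lie in 2 groups on chromosome 11 of GRCm38 (GENCODE M21). Ccl2 (82035571 to 82037453) and Ccl7 (82045712 to 82047525) are neighbours on the plus strand. Farther along are Ccl5 (83525778 to 83530518), Ccl9 (83572919 to 83578636), Ccl6 (83587882 to 83593087) and Ccl3 (83647844 to 83649355) on the minus strand, and Ccl4 (83662584 to 83664683) on the plus strand. To show the feature that defines the family, 30 bases of coding sequence of 6 of the genes are given 5′ to 3′, each on its own strand, from the GENCODE M21 annotation, with the codons of the adjacent cysteine pair in capitals. The transcript of each of these held 1 such pair. The stretch lies in exon 2 of 3, except in Ccl6 and Ccl9, where it lies in exon 3 of 4.
Ccl2, chr11:82036494-82036523: gccccactcaccTGCTGCtactcattcacc
Ccl7, chr11:82046526-82046555: aatgcatccacaTGCTGCtatgtcaagaaa
Ccl4, chr11:83663470-83663499: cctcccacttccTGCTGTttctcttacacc
Ccl5, chr11:83529230-83529259: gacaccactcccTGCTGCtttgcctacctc
Ccl6, chr11:83589374-83589403: acttcttcagacTGCTGCttctcttatgcc
Ccl9, chr11:83575914-83575943: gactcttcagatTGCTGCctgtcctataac

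The cysteine codons are TGCTGC in each gene shown except Ccl4, which has TGCTGT. With gaps counted, the most alike coding sequences were those of Ccl3 and Ccl4, with 68.4% identical positions over their alignment, and of Ccl6 and Ccl9, with 65.1%. Over aligned bases alone these pairs had 71.4% and 70.7%, and Ccl2 was closer to Ccl3 (75.7%), Ccl4 (74.2%) and Ccl7 (73.4%). The longest run of bases that any pair of the transcripts shared was 25, between Ccl6 and Ccl9, against reads of 151 bases. Ccl6 overlaps E230016K23Rik on the opposite strand, which had 30 to 220 reads per library, and Ccl2 overlaps Gm17268 on the opposite strand, which had 0 reads in every library. Whether the counting used the strand is not given in the sources used here, so some reads in the overlap with E230016K23Rik may belong to either gene.

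The spacing of low values gave back whole reads, 4580807 to 7949367 per library. The scaling in the deposited values used 1.08 to 1.22 times the recovered total in tumor, 0.818 to 0.863 times in blood and 0.796 to 0.881 times in bone marrow. With plain totals in its place, the median log2 difference over all tested genes moved from -0.17 to 0.28 for tumor against blood and from -0.21 to 0.25 for tumor against bone marrow. In bulk samples such as these, fewer cells of a type and less RNA per cell cannot be told apart.

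The cells' labels were checked on marker genes, summed as reads per 1000000 recovered reads (RPM). All 10 neutrophil markers had reads in every library, and their sum was highest in bone marrow (104525 to 109060), then blood (33598 to 34156), then tumor (14964 to 20411). The stage of the neutrophils differed too. The 7 immature neutrophil markers with values, such as Mpo and Elane, summed to 1335 to 1941 RPM in bone marrow. They came to 29.1 to 41.8 RPM in tumor and 4.58 to 13.03 in blood. Against bone marrow, all 7 were called lower in blood and in tumor, beside 23.6% and 32.9% of all tested genes. Mpo, Ctsg, Ms4a3 and Prtn3 were high enough for the test only through bone marrow, so their calls are no separate support. The part of this difference in stage in the comparisons with bone marrow was not tested. RNA of other cells moved with the compartments as well. The 7 epithelial markers (Krt8, Krt18, Krt19, Krt7, Epcam, Cdh1 and Cldn4) summed to 3156, 2409 and 5178 RPM in tumor replicates 1, 2 and 3, against 7.03 to 10.3 in bone marrow and 12.01 to 134 in blood. The 7 fibroblast markers summed to 1115, 1175 and 1375 RPM in tumor, against at most 9.99 elsewhere, with Postn at 0 reads in every blood and bone marrow library. Tumor replicate 3 stood highest of the tumor libraries for both lists, and it had the lowest tumor value of each of the 7 ligands. The 11 macrophage markers summed to 624 to 836 RPM in tumor, lowest again in replicate 3, beside 1409 to 1589 in blood and 463 to 478 in bone marrow. The 6 monocyte markers summed to 492 to 647 RPM in tumor, 326 to 486 in blood and 1255 to 1547 in bone marrow. Most of their tumor sum was Fn1, with 2326 to 3746 reads per tumor library against 433 to 526 in blood. In tumor against blood, Fn1 was higher, at a log2 fold change of 1.99. Ccr2 (-3.29) and Ms4a6c (-3.40) were lower, and Ly6c2 (-0.82) did not pass. F13a1 and Cx3cr1, which were not tested, had fewer reads in tumor than in blood. The 10 T and NK cell markers were at 31.3 to 68.8 RPM in blood and 4.45 to 8.08 in tumor, where Klrb1c and Ncr1 had 0 reads, and the 7 platelet markers were at 499 to 674 RPM in blood and at most 12.2 elsewhere. Within the macrophage list, Csf1r had 1254 to 1709 reads per tumor library, Adgre1 767 to 1528, Cd68 792 to 1383 and Apoe 754 to 982, while C1qa had 30 to 33, C1qb 60 to 87 and Ms4a7 3 to 5. Of these, C1qb was higher in tumor than in blood (log2 fold change 1.04, limma adjusted p = 0.0397). Csf1r and Apoe were lower, by log2 fold changes of -2.54 and -0.82. Against bone marrow, Adgre1 (1.29), Apoe (0.72) and Cd68 (0.71) were higher in tumor and Csf1r (-0.60) was lower. The 7 eosinophil, basophil and mast cell markers summed to 238 to 286 RPM in tumor and at most 128 elsewhere, nearly all of it Siglecf and Il5ra in tumor, where Epx and Cpa3 had 0 reads. The 5 endothelial markers summed to 104 to 150 RPM in tumor and at most 38.4 elsewhere, and the 5 dendritic cell markers to at most 5.88 in tumor and 23.4 elsewhere. The part of these other cells in the results that follow was not tested.

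**Figure D1:**
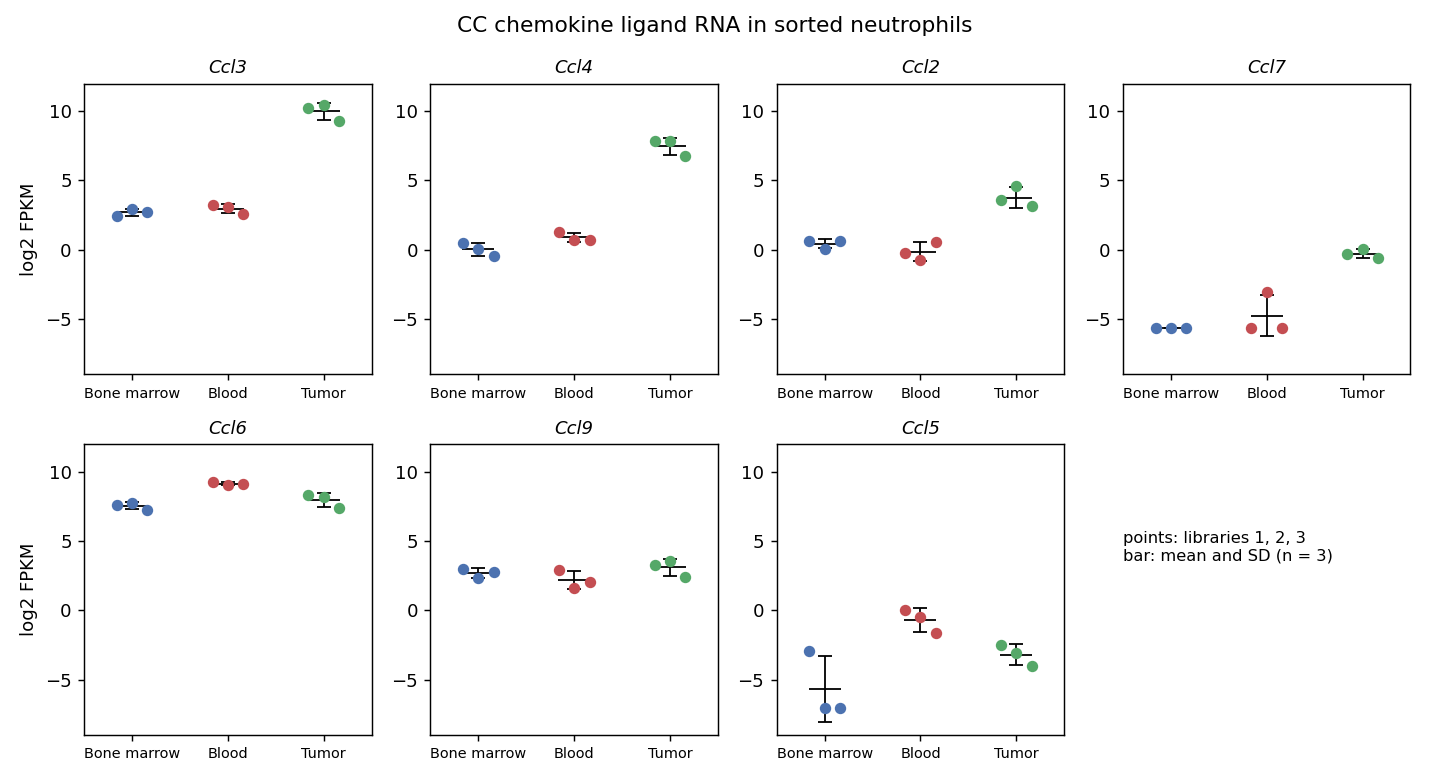
Log2 FPKM (vertical axis) of the 7 ligands in the 3 bone marrow, 3 blood and 3 tumor libraries. Points are libraries and bars are the mean and SD (n = 3), and the lowest points of Ccl7 and Ccl5 are libraries with 0 reads. Ccl3, Ccl4, Ccl2 and Ccl7 stand above both other compartments in every tumor library, Ccl6 and Ccl5 are highest in blood, and the groups overlap for Ccl9.

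Transcripts of Ccl3 and Ccl4, the ligands also known as MIP-1 alpha and MIP-1 beta, had the largest fold changes of the tested ligands in tumor-infiltrating neutrophils, against both other compartments. The log2 FPKM of Ccl3 was 2.42, 2.95 and 2.74 for the bone marrow libraries, 3.23, 3.10 and 2.57 for those of blood, and 10.22, 10.44 and 9.33 for those of tumor. Every tumor library was far above every other library, while bone marrow and blood overlapped. In reads, Ccl3 had 7709 to 15897 per tumor library against 42 to 72 per library elsewhere. Ccl3 was 130-fold higher in tumor than in blood, a log2 fold change of 7.03 (SE 0.31, limma adjusted p = 2.65e-06), and 156-fold higher than in bone marrow, a log2 fold change of 7.29 (SE 0.31, limma adjusted p = 2.86e-06). The difference between blood and bone marrow was 0.26 (SE 0.31) and did not pass (limma adjusted p = 0.532). Without tumor replicate 3, the differences were 7.36 against blood and 7.62 against bone marrow.

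Ccl4 had a log2 FPKM of 0.45, 0.04 and -0.45 for the bone marrow libraries, 1.28, 0.71 and 0.72 for those of blood, and 7.82, 7.83 and 6.78 for those of tumor. The 3 groups did not overlap, with bone marrow lowest and tumor highest. Its log2 fold change was 6.57 (SE 0.35, limma adjusted p = 4.81e-06) in tumor against blood and 7.46 (SE 0.35, limma adjusted p = 3.62e-06) in tumor against bone marrow. Both comparisons use the same tumor libraries and are not independent of each other. Between blood and bone marrow the difference was 0.89 (SE 0.35), which did not pass (limma adjusted p = 0.0722) and rested on 10 to 20 reads per library. It passed without tumor replicate 3, which enters this comparison only through the shared estimate of the spread (limma adjusted p = 0.030).

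Ccl3 stood above Ccl4 in every library. Their difference within a library, in log2 FPKM per length of the whole gene, was 2.52 ± 0.11 in tumor, 2.06 ± 0.28 for blood and 2.69 ± 0.64 for bone marrow (mean ± SD, n = 3). The difference between tumor and bone marrow had an exact two-sided permutation p = 0.8, and that between tumor and blood p = 0.1 by the same exact test, the smallest that 3 against 3 libraries can give. Over the 9 libraries, the Pearson correlation of Ccl3 with Ccl4 was 0.992, the highest between any of the 7 ligands. Such a value describes mainly the gap between tumor and the other compartments, and the libraries share their scaling.

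Ccl2 and Ccl7, the ligands of Ccr2, were also higher in tumor, at much lower levels. The log2 FPKM of Ccl2 was 0.61, 0.07 and 0.62 for the bone marrow libraries, -0.28, -0.76 and 0.58 for those of blood, and 3.56, 4.58 and 3.13 for those of tumor. The tumor libraries did not overlap with the others, which overlapped among themselves. Ccl2 was 15.1-fold higher in tumor than in blood, with a log2 fold change of 3.91 (SE 0.45, limma adjusted p = 0.00016). Against bone marrow its log2 fold change was 3.32 (SE 0.45, limma adjusted p = 0.00045). With 1 FPKM added before the log, these differences shrank to 2.92 and 2.63.

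Ccl7 was at the edge of detection. It had 0 reads in every bone marrow library, 1 read in all of blood, in replicate 2, and 9, 14 and 9 reads in the tumor libraries. Only the tumor libraries held more than a single read. Of these, replicate 2 alone was over a log2 FPKM of 0, so Ccl7 was not among the genes tested. Per scaled read, the ratio of reads in tumor to blood was 21.0, with a 95% counting interval of 3.50 to 854. Against bone marrow, Ccl7 was at least 9.33-fold higher, taking 3 reads over the group as the limit that a count of 0 allows. These intervals cover the counting of reads only, since PCR copies cannot be told from separate molecules here. A second fit took in the 17714 genes that reached 5 reads somewhere. There Ccl7 passed in tumor against blood (limma adjusted p = 0.00088), with 32.4% of these genes higher, and against bone marrow (limma adjusted p = 0.00042), with 25.2% higher. Ccl7 reached 5 reads only in tumor libraries, so its entry into this fit depended on a high tumor count. These p-values are therefore no separate support for the difference.

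Ccl6 had the opposite order between blood and tumor. Its log2 FPKM was 7.64, 7.76 and 7.28 for the bone marrow libraries, 9.27, 9.04 and 9.14 for those of blood, and 8.35, 8.22 and 7.39 for those of tumor. Blood stood above both other groups without overlap, and tumor overlapped with bone marrow through its replicate 3. Ccl6 was 3.01-fold higher in blood than in bone marrow, a log2 fold change of 1.59 (SE 0.25, limma adjusted p = 0.0018). In tumor it fell by 1.17 on the log2 scale relative to blood (SE 0.25, limma adjusted p = 0.0045). Scaled by plain library totals it fell by 0.72 (limma adjusted p = 0.0202), where 24.4% of all genes were lower. Tumor against bone marrow gave 0.42 (SE 0.25), which did not pass (limma adjusted p = 0.194). That call turned on 1 library and on the scaling, since it passed without tumor replicate 3, at 0.72 (limma adjusted p = 0.0081), and when scaled by plain library totals, at 0.88 (limma adjusted p = 0.0096), where 33.4% of all genes were higher.

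Ccl9, which like Ccl6 binds Ccr1, passed in none of the comparisons. Its log2 FPKM was 3.01, 2.33 and 2.79 for the bone marrow libraries, 2.89, 1.62 and 2.06 for those of blood, and 3.32, 3.56 and 2.44 for those of tumor, and each pair of groups overlapped. The log2 differences were 0.91 (SE 0.40, limma adjusted p = 0.0766) in tumor against blood, 0.40 (SE 0.40, limma adjusted p = 0.431) in tumor against bone marrow and -0.52 (SE 0.40, limma adjusted p = 0.328) in blood against bone marrow. The first of these passed in 5 of 22 alternative fits. Among them were plain library totals, at 1.36 with 37.5% of genes higher, the fit without blood replicate 1, at 1.26, and that without tumor replicate 3, at 1.25. Limma-voom on the recovered reads was another, at 0.95 (adjusted p = 0.0335) with 33.1% of its genes higher. The gap between Ccl6 and Ccl9 was widest in blood. Ccl6 minus Ccl9 in log2 FPKM was 4.88 ± 0.19 in tumor, 6.96 ± 0.53 for blood and 4.85 ± 0.51 for bone marrow (mean ± SD, n = 3). Blood did not overlap with either of the others, with an exact two-sided permutation p = 0.1 in each case.

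Ccl5, the ligand known as RANTES that T cells, NK cells and platelets make in quantity, was the only ligand with fewer reads in tumor than in blood apart from Ccl6. Blood had 19, 19 and 7 reads, tumor 5, 4 and 2, and bone marrow 4, 0 and 0. Per scaled read, the ratio of tumor to blood was 0.160, with a 95% counting interval of 0.0747 to 0.315, and that of blood to bone marrow was 15.0, with an interval of 5.47 to 57.5. Blood did not overlap with the other groups. In the second fit, blood against bone marrow passed (limma adjusted p = 0.0111), with 12.6% of genes higher. Tumor against blood did not (limma adjusted p = 0.0879, 20.2% of genes lower), although limma-voom on the same genes called it (adjusted p = 0.0155, 21.9% of genes lower). The markers of T and NK cells and of platelets given above were also highest in blood, and their part in the Ccl5 values was not tested.

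**Figure D2:**
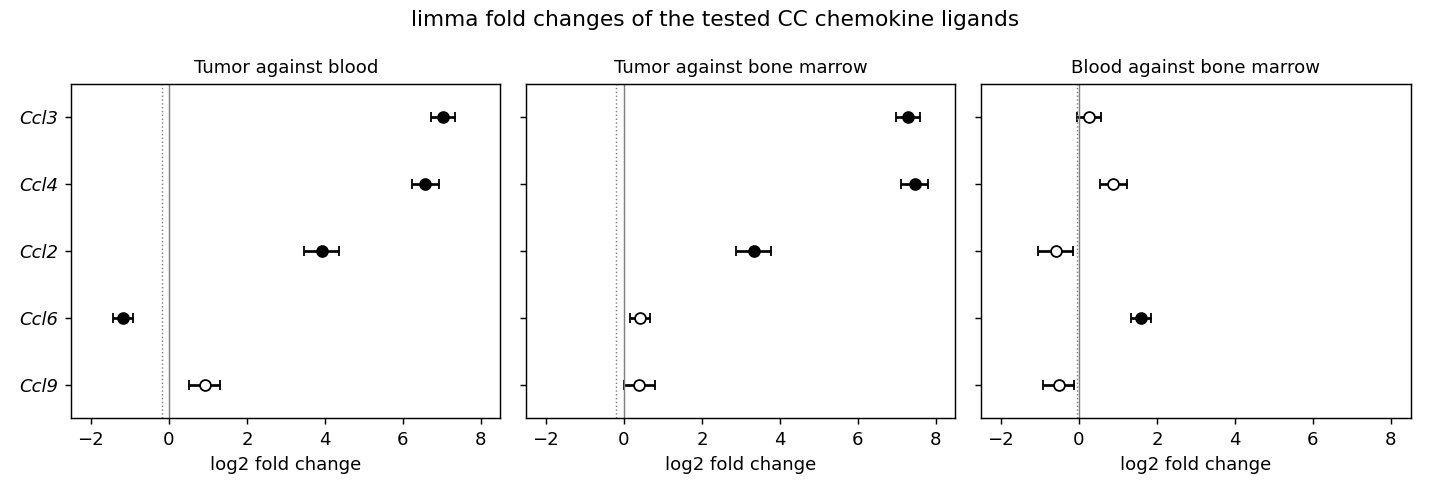
Log2 fold changes (horizontal axis) of the 5 tested ligands in 3 comparisons, with limma standard errors as bars. Filled points passed an adjusted p of 0.05, open points did not, and the dotted line is the median of all 7794 tested genes. Ccl3 and Ccl4 lie above 6 in both tumor panels, Ccl2 above 3, and Ccl6 is the only ligand below 0 that passed.

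In counts, 3 of the 5 tested ligands passed as higher and 1 as lower in tumor against blood, where 28.1% of all tested genes were higher and 34.5% lower. In tumor against bone marrow, 3 passed as higher and 0 as lower in limma, with 0 lower at an unadjusted p under 0.05, against 22.4% and 32.9% of all genes. In blood against bone marrow, 1 passed as higher and 0 as lower, again with 0 lower at an unadjusted p under 0.05, against 20.6% and 23.6%. Limma-voom, which tested all 7, called 5 higher and 2 lower in tumor against blood (33.1% and 21.9% of its genes), 4 higher and 0 lower in tumor against bone marrow (29.3% and 21.0%) and 2 higher and 0 lower in blood against bone marrow (13.8% and 16.4%). Its higher counts in both tumor comparisons include Ccl7, which entered that fit only through its tumor libraries. The median log2 fold change of the 5 was 3.91, 3.32 and 0.26 in these comparisons, beside -0.17, -0.21 and -0.04 over all tested genes. Each of the 5 was over the filter in at least 4 bone marrow or blood libraries, so none was tested only because it was high in tumor.

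Levels of different ligands were compared as scaled RPM per kilobase of exon, since the deposited values divide by the whole length of the gene with its introns. In bone marrow Ccl6 led with 552 ± 90.7 (SD, n = 3, as for all levels here), followed by Ccl3 with 12.98 ± 2.35 and Ccl9 with 12.5 ± 2.89, which differed by less than the sum of their SDs and changed order between libraries. Ccl4 with 3.27 ± 1.01 and Ccl2 with 2.24 ± 0.46 came next, likewise without a fixed order, and Ccl5 and Ccl7 were last. In blood Ccl6 led with 1652 ± 132, and then came Ccl3 with 15.7 ± 3.55, Ccl9 with 9.16 ± 4.22, Ccl4 with 6.00 ± 1.45, Ccl5 with 3.37 ± 1.73 and Ccl2 with 1.57 ± 0.77, and after Ccl6 each mean differed from the next by less than the sum of their SDs. Within the blood libraries, Ccl3 was 1.33 to 2.92 times Ccl9, Ccl9 was 1.12 to 1.81 times Ccl4 and Ccl4 was 1.45 to 3.32 times Ccl5, and only the order of Ccl5 and Ccl2 varied between libraries. In tumor the order began with Ccl3 at 2119 ± 764, above Ccl6 at 765 ± 245 and Ccl4 at 596 ± 214, and the means of the latter pair differed by less than the sum of their SDs. Within each tumor library, however, Ccl6 was 1.20 to 1.39 times Ccl4. Ccl2 at 24.5 ± 13.2 and Ccl9 at 17.0 ± 6.16 followed, again closer than their SDs, with Ccl2 at 1.05 to 1.78 times Ccl9 within the libraries, and Ccl7 at 1.85 ± 0.45 and Ccl5 at 0.55 ± 0.29 were lowest.

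The make-up of the ligand RNA does not depend on how the libraries were scaled. Ccl6 took 93.7% to 96.2% of the reads of the 7 ligands in the bone marrow libraries and 97.9% to 98.6% in blood, but 36.6% to 41.9% in tumor. Ccl3 took 44.4% to 49.5% in tumor, beside 0.734% to 1.17% in bone marrow and 0.300% to 0.464% in blood, and Ccl4 took 10.8% to 11.7% in tumor against at most 0.258% elsewhere. The make-up of the tumor libraries was thus alike in all 3, including replicate 3, whose level of each ligand was lowest. Ccl9 took a mean of 3.74% in bone marrow, 1.48% in tumor and 0.907% in blood. For Ccl3, Ccl4, Ccl6 and Ccl9 the groups did not overlap in any comparison of these shares, each with an exact two-sided permutation p = 0.1, the smallest possible, and 0.132 after Benjamini-Hochberg adjustment over 33 comparisons. Counted per kilobase of exon, Ccl3 made up 60.0% and Ccl6 21.9% in tumor, and Ccl6 97.9% in blood.

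**Figure D3:**
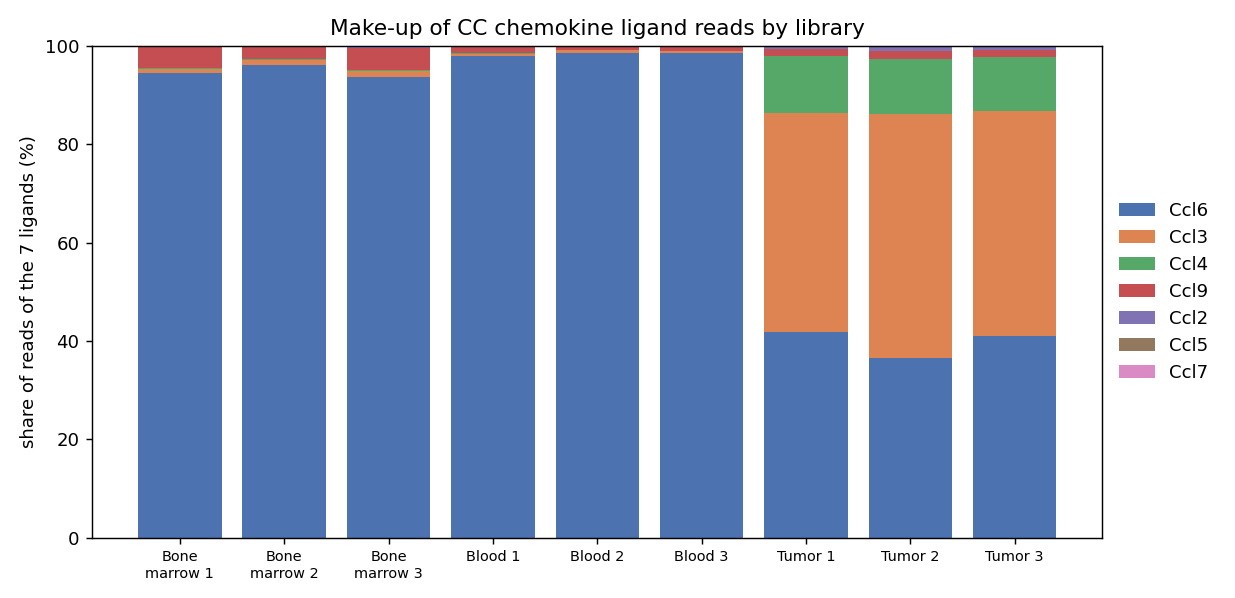
Share of each ligand in the reads of the 7 ligands (vertical axis, percent) in each of the 9 libraries, as stacked bars from 0. Ccl6 fills at least 93.7% of each bone marrow and blood bar, and in the tumor bars Ccl3 and Ccl4 together take more than Ccl6.

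Summed over the 7 ligands, the libraries had scaled RPM of 4047, 4247 and 2120 in tumor, 2778 to 3279 in blood and 864 to 1169 in bone marrow. Tumor replicate 3 was thus below every blood library on this scale. With plain library totals its sum was 2589, within the blood range of 2271 to 2829, so the summed level of tumor overlapped with that of blood on both scales. Of 16 further CC ligand genes listed, 11 had reads in any library and 0 were high enough to be tested. Together they came to 7.17 to 17.3 RPM in tumor, 0.719 to 2.34 in blood and 1.64 to 2.52 in bone marrow. Ccl20, a ligand of Ccr6, had 0 reads outside tumor and 6 to 20 in the tumor libraries, and Ccl24, an eotaxin, had 1 read outside tumor and 4 to 16 in tumor.

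The receptors for these ligands showed different patterns. Of 12 CC receptor genes listed, all had reads in some library and 4 were tested. Ccr1, the receptor for Ccl3, Ccl5, Ccl6, Ccl7 and Ccl9, was the highest conventional one, with a log2 FPKM of 7.58, 7.61 and 7.38 for the bone marrow libraries, 8.58, 8.73 and 8.72 for those of blood, and 8.41, 8.60 and 7.92 for those of tumor. It was higher than in bone marrow both in blood, by 1.15 (limma adjusted p = 0.00135), and in tumor, by 0.79 (limma adjusted p = 0.00564), and the difference of tumor from blood was -0.37 (limma adjusted p = 0.101), or 0.08 with plain library totals. Limma-voom called Ccr1 lower in tumor than in blood (-0.37, adjusted p = 0.0362), where 21.9% of its genes were lower. Ccr2, the receptor for Ccl2 and Ccl7, was at -0.82 ± 0.43 in tumor, 2.47 ± 0.64 for blood and 3.43 ± 0.32 for bone marrow (mean ± SD, n = 3). It was thus lower in tumor, by a log2 fold change of -3.29 against blood (limma adjusted p = 0.00012) and of -4.25 against bone marrow (limma adjusted p = 3.92e-05), where its ligands Ccl2 and Ccl7 were higher. Ccr2 is also among the monocyte markers given above, and the part of monocytes in its values was not tested.

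Ccrl2, a relative of the CC receptors that binds chemerin and does not signal like them, moved as Ccl3 did. Its log2 FPKM was 2.43, 2.19 and 2.33 for the bone marrow libraries, 2.79, 2.90 and 2.10 for those of blood, and 10.30, 10.50 and 9.85 for those of tumor, so every tumor library was far above the rest. Its log2 fold changes were 7.62 against blood and 7.90 against bone marrow. Ccr7, which guides cells to lymph nodes, was higher in blood than in bone marrow by 4.25 (limma adjusted p = 0.0261) and lower in tumor than in blood, with 6, 4 and 0 reads in the tumor libraries against 120, 85 and 61 in those of blood. It was over the filter only in the blood libraries, the group where it was high. The p-values of Ccr7 are therefore no separate support for these differences. In tumor against blood the log2 fold change of Ccr7 was -6.06 (limma adjusted p = 0.0033). Part of its size came from the library at 0, tumor replicate 3, without which it was -4.60 (limma adjusted p = 0.0022). With quantile normalization it was -8.25. Ackr3, an atypical scavenging receptor, had 108 to 190 reads per tumor library, at most 1 in blood and 0 in bone marrow. Of the 4 tested receptors, 1 was called higher and 2 lower in tumor against blood, beside 28.1% and 34.5% of all tested genes, and 2 higher and 1 lower in tumor against bone marrow, beside 22.4% and 32.9%. With quantile normalization 2 were lower in the latter. The 2 lower against blood were Ccr2 and Ccr7, and Ccr7 was tested only through its blood libraries. Limma-voom tested 9 of the receptors and called 1 higher and 4 lower in tumor against blood (33.1% and 21.9% of its genes).

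**Figure D4:**
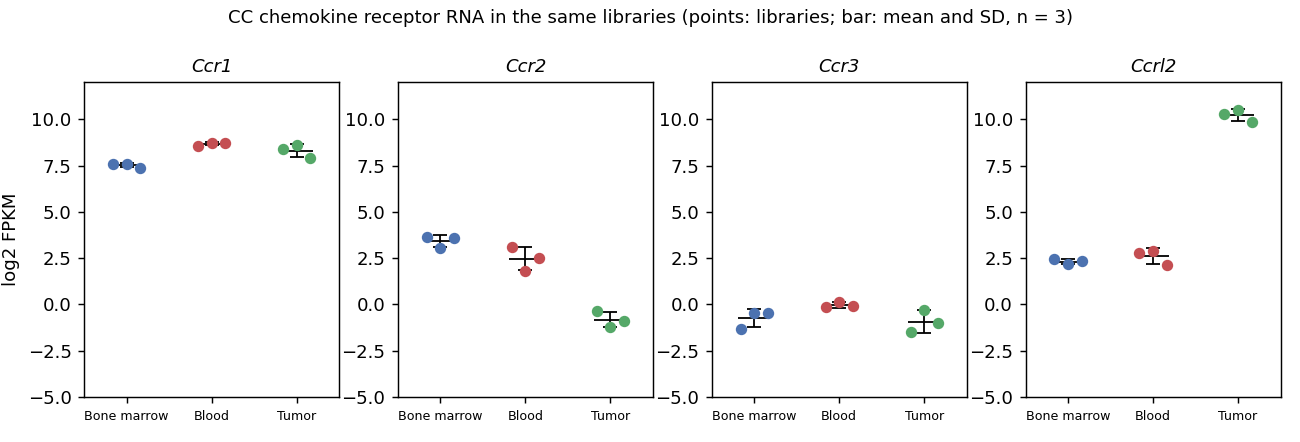
Log2 FPKM (vertical axis) of Ccr1, Ccr2, Ccr3 and Ccrl2 in the same 9 libraries. Points are libraries and bars are the mean and SD (n = 3). Ccrl2 rises in tumor to a log2 FPKM of 9.85 to 10.50, Ccr2 falls there below 0, and Ccr1 lies between 7.38 and 8.73 in every library.

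Ccl2, Ccl3, Ccl4, Ccl5 and Ccl7 are known as genes that the transcription factor NF-kB can induce, so 16 genes of that pathway were examined, all of which were tested. Against blood, 5 were higher and 4 lower in tumor, beside 28.1% and 34.5% of all genes, with a median log2 difference of -0.11. With plain library totals 7 were higher and 1 lower (37.5% and 24.4% of all genes), with a median of 0.34. Against bone marrow 8 were higher and 1 lower (22.4% and 32.9%), with a median of 0.70, and in blood against bone marrow 7 were higher and 0 lower (20.6% and 23.6%), with a median of 0.50. Some genes that encode inhibitors or other regulators of the pathway rose against both compartments. Tnfaip3, which encodes the ubiquitin-editing enzyme A20, rose by 5.34 against blood and by 5.32 against bone marrow, Nfkbia by 2.27 and 2.93, Nfkbiz by 2.34 and 3.36, and Nfkbie by 1.31 and 0.92. The inhibitor gene Nfkbib passed against blood, at 0.58 (limma adjusted p = 0.0299), but not against bone marrow, at 0.12 (limma adjusted p = 0.617). The subunit genes Relb, Nfkb2 and Rel and the adaptor Traf6 rose in tumor against bone marrow, by 1.37, 1.18, 0.89 and 1.16. Relb, Nfkb2 and Rel rose in blood against bone marrow too, by 1.48, 1.40 and 0.995, where Traf6 did not pass, at 0.35. In tumor against blood these genes did not pass, and Bcl3, which encodes a regulator of the pathway, fell by 0.88 (limma adjusted p = 0.0276). On plain library totals Traf6 passed against blood, at 1.26, and Bcl3 did not, at -0.43. The adaptor Myd88 had log2 fold changes of -2.45 and -0.85 in the same comparisons. The subunits Rela and Nfkb1 were lower in tumor than in blood, with log2 fold changes of -0.60 (limma adjusted p = 0.0397) and -1.16 (limma adjusted p = 0.0093). Neither passed when scaled by plain library totals, at -0.15 and -0.71.

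Chemokine transcripts can be short-lived, and the pentamer ATTTA, read on the transcript's own strand, is a known element of such RNAs when it lies after the stop codon. It was counted there, overlaps included, in the transcripts of 19745 genes with at least 100 bases after the stop codon in GENCODE M21. The median gene had 1.35 matches per kilobase, and 68.2% of genes had a match. Ccl3 had 5 matches in 409 bases, or 12.2 per kilobase, and 0.410% of genes were at least as dense. Ccl4 had 2 in 302 bases (6.62 per kilobase, with 3.63% of genes at least as dense), Ccl7 had 2 in 435, Ccl6 had 4 in 943, Ccl2 had 1 in 275, Ccl9 had 5 in 2465 and Ccl5 had 0 in 199. The densest pair was thus the pair with the largest differences between compartments, a description over 7 genes and not a test. Of 7 genes whose proteins bind or cut such RNAs, 6 were tested, and 2 were higher and 1 lower in tumor against blood (28.1% and 34.5% of all genes), 3 higher and 0 lower in tumor against bone marrow (22.4% and 32.9%), and 3 higher and 0 lower in blood against bone marrow (20.6% and 23.6%). Their medians were 0.22, 0.94 and 0.46. Scaled by plain library totals, 3 were higher and 0 lower in tumor against blood (37.5% and 24.4% of all genes). Zfp36, which encodes tristetraprolin, rose by 1.501 in tumor against blood and by 1.46 against bone marrow, and Zc3h12a, which encodes the ribonuclease Regnase-1, by 0.63 and 2.44. Zfp36l1 rose by 2.76 in tumor and by 2.58 in blood against bone marrow, and tumor against blood gave 0.18, which did not pass. That call turned on the scaling. It passed with plain library totals, at 0.63 (limma adjusted p = 0.0088), and with quantile normalization, at 0.55 (limma adjusted p = 0.0235). Rc3h1 was lower in tumor than in blood, at -0.63 (limma adjusted p = 0.0358), but did not pass on plain library totals, at -0.19.

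For each ligand, the tested genes with the most similar pattern were taken by the Pearson correlation of log2 FPKM over the 9 libraries. For Ccl3 these were Ccrl2 (r = 0.998), Ptgs2, which encodes cyclooxygenase-2 (r = 0.997), and Rab20 (r = 0.997). For Ccl4 they were Il1a, the cytokine interleukin-1 alpha (r = 0.998), Clcn7 (r = 0.996) and St13 (r = 0.993). The mean log2 FPKM of Ptgs2 was 8.98 in tumor, 1.98 for blood and 1.94 for bone marrow, and that of Il1a was 5.54, -3.38 and -4.16, so both stood far highest in tumor. For Ccl6 they were 4833407H14Rik (r = 0.991), Clec4d, a lectin receptor of myeloid cells (r = 0.989), and March7 (r = 0.986). For Ccl9 the closest gene was Tpt1, with r = 0.910, the lowest best match of the 7, and for Ccl2 it was M6pr, with r = 0.980. The closest gene to Ccl7 was Clec14a, known from endothelium, with r = 0.9999, and that of Ccl5 was A430110C17Rik, with r = 0.959, but Ccl7 and Ccl5 had few reads. These values describe patterns over 3 compartments and carry no test.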

How the data were processed

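RNA sequencing of 9 libraries was analysed from the values the authors deposited, log2 FPKM for 46517 genes. Per the labels and the study's methods, SMARTSeq v2 cDNA was sequenced in paired reads of 151 bases, mapped with STAR 2.5.2b to GRCm38/mm10 and counted with featureCounts 1.5.0 on GENCODE M7, and edgeR 3.8.6 is named in the submitters' processing notes. From the values, 0.25 reads in a library of mean size had been added before the log, and gene length was the genomic span for 85.1% of 46005 identifiers in GENCODE M21. Whole reads were recovered for all 46517 genes, within 0.02 of a whole number. The main test took the 7794 genes with a log2 FPKM over 0 in 3 or more libraries and used limma 3.58.1 in R 4.3.3 (trend, 9 libraries, Benjamini-Hochberg, threshold 0.05), and single values with exact permutation tests in scipy 1.17.1. The fits were tested on simulated data. Ccl5 and Ccl7 fell below the filter and take their p-values from a fit to the 17714 genes that reached 5 reads somewhere. Ccl7 did so in tumor alone. The 7 ligands and all gene lists were chosen with earlier results of these data known. The genes named are the ligands, list members that passed in both tumor comparisons or differed most, and the 3 genes closest to each ligand. Ccr1, Ccr3, Ccr7, Ccl20, Ccl24, Bcl3, Nfkb1, Nfkb2, Nfkbib, Rc3h1, Rel, Rela, Relb, Traf6 and single markers were named after their values were seen. Alternatives covered pseudocounts, filters, scaling, variance models, limma-voom, the compartments in the fit, the replicate block and each library left out. The study's WT pool was not analysed here, and some items are not reported here.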

Additional observations from a re-analysis of the deposited data

How the results depend on the processing

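Ccl2, Ccl3 and Ccl4 passed as higher in both tumor comparisons in each of the 22 alternative fits. In all of these fits, Ccl6 passed as lower in tumor than in blood and higher in blood than in bone marrow. With the stricter filter, whose cutoff on the log2 scale was 2, Ccl2 and Ccl4 entered only through their tumor libraries. Their calls in that fit are therefore no separate support. Of the ligands' recomputed values, 0 changed direction, 12 single-gene differences passed in an alternative and not as reported, and 13 counts or shares moved. Outside the ligands, some signs did turn with plain library totals. Those in tumor against blood include the median of all genes (-0.17 to 0.28), that of the NF-kB list (-0.11 to 0.34) and Ccr1 (-0.37 to 0.08). Relb (-0.11 to 0.34) and Nfkb2 (-0.22 to 0.23) turned as well. The median of all genes also turned in tumor against bone marrow (-0.21 to 0.25). The main test called none of these genes in tumor against blood, but limma-voom called Ccr1 lower (-0.37, adjusted p = 0.0362). With limma-voom on the recovered reads, which tests all 7 ligands, 5 were higher and 2 lower in tumor against blood. The 5 include Ccl7, which entered only through its tumor libraries. In blood against bone marrow, 2 ligands in place of 1 were higher with no filter, with the filter of 5 reads, with quantile normalization and with limma-voom. The count was 1 to 2 when each library was left out in turn, the 2 arising without tumor replicate 3, through Ccl4. With the replicate number as a block it was also 2, again through Ccl4 (log2 difference 0.89, adjusted p = 0.0157), and the block changed no other call. Libraries with the same number did not deviate together (correlations of -0.071 to 0.108 over the tested genes), so the numbers were not taken to pair them. Counted per kilobase of exon, the share of Ccl3 was 60.0% in tumor, 0.930% for blood and 2.26% for bone marrow, and that of Ccl6 97.9% in blood and 21.9% in tumor. The cause of these shifts was not tested, except that the filters add Ccl5 to the genes tested and that a share per kilobase of exon favours short transcripts. Depth limits Ccl5 and Ccl7, with at most 19 reads in a library, and 3 libraries per compartment allow no permutation p below 0.1.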
